A study of Mus musculus with 10 samples.

Results

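Otx2, Pou3f1 (also called Oct6), Zic1, Zic2, Zic5, Fgf5, Foxd3 and Sall2 are genes that mark the formative and primed phases of pluripotency, and their levels were read in 5 lines of mouse J1 embryonic stem cells (ESCs) by bulk RNA-seq. They were chosen by name, and all 8 were found among the 21853 protein-coding gene rows of each table. The list holds 8 genes because Oct6 is an older name of Pou3f1. Each line had 2 libraries. Naïve J1 ESCs (WT) were unedited for either target; GKO ESCs carried a Cas9 indel in Gys1, the glycogen synthase gene of most tissues; AKO ESCs were targeted in Prkaa1, which encodes a catalytic subunit of the energy sensor AMPK; DKO ESCs were targeted in both. Primed ESCs (PJ1, WT) came from the same J1 line. By the labels' growth protocol, the first 4 lines grew on gelatin in serum with LIF, PD0325901 (a MEK1 inhibitor) and CHIR99021 (a GSK3β inhibitor), whereas PJ1 grew on Matrigel in KnockOut Serum Replacement with bFgf and Activin, so that cell state and medium cannot be told apart in any comparison with PJ1. GKO was established as single clones and AKO with DKO by sorting cells that carried a repair plasmid with a red fluorescent reporter. Which clone gave each library, and whether the libraries of a line were separate cultures, was not stated in the sources used here. The p-values therefore measure the spread between these libraries, which may be technical, and an effect of the edit cannot be told apart from a difference between clones.

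In the embryo, naïve pluripotency belongs to the pre-implantation epiblast. Around implantation the epiblast passes through a formative phase, when it becomes able to respond to inductive signals, to a primed phase, when genes of the germ layers become readable. OTX2 is a homeodomain factor that redirects the core factor OCT4 to new enhancers at this exit, and POU3F1 is a POU factor that rises alongside it. ZIC1, ZIC2 and ZIC5 are zinc finger factors of one family, of which ZIC2 acts at enhancers in pluripotent cells. FGF5 is a secreted growth factor and the classical transcript of the post-implantation epiblast. FOXD3 is a forkhead factor needed to maintain the epiblast and later the neural crest, and SALL2 is a zinc finger factor of the spalt family, better known from neural tissue.

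The 8 genes sit on 4 chromosomes in the mouse assembly GRCm39 (GENCODE vM39). Otx2 (chr14:48894099-48911276, minus strand), Sall2 (chr14:52548629-52566219, minus), Zic5 (chr14:122694190-122703089, minus) and Zic2 (chr14:122711827-122717264, plus) share chromosome 14, and Zic2 and Zic5 are neighbours whose starts lie 8738 bases apart and point away from each other. Pou3f1 (chr4:124550600-124554448, plus) and Foxd3 (chr4:99544536-99546859, plus) are on chromosome 4, Fgf5 (chr5:98401780-98452320, plus) is on chromosome 5, and Zic1 (chr9:91240111-91247863, minus) is on chromosome 9. Every 75-base stretch of these transcripts was unique among protein-coding genes. Of the 8 genes, Fgf5 alone overlapped no other annotated gene: Zic1 overlapped Zic4, its family neighbour on the opposite strand, and the other 6 overlapped non-coding transcripts. Whether the counting used strand was not stated, so reads from overlapping partners cannot be told apart.

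Promoters of 6 of the 8 genes were found in a RefSeq table (GRCm38.p6), and the 250 bases before the start are shown for 4 genes with unlike patterns across the lines, picked after their values were seen: Zic5, which went up in GKO and down in DKO; Foxd3, which went the opposite way in GKO; Otx2, which was lower in DKO; and Fgf5, which was near 0 outside the primed line. Pou3f1 and Zic2 had no entry. Sequences run 5′ to 3′ on the gene's strand, and capitals mark any match to GGATTA (the core bound by OTX factors), ATGCAAAT (the octamer bound by POU factors), CCTGCTG (a core of motifs bound by ZIC factors), TATAAA (the TATA box) or CCAAT (the CCAAT box), each searched on both strands; none of these motifs contains another.
Zic5 chr14:122465659-122465908 minus strand: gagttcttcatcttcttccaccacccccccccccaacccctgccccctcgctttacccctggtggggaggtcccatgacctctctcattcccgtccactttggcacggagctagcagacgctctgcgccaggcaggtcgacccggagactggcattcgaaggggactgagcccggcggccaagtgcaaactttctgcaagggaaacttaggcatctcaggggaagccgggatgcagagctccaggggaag
Foxd3 chr4:99656049-99656298 plus strand: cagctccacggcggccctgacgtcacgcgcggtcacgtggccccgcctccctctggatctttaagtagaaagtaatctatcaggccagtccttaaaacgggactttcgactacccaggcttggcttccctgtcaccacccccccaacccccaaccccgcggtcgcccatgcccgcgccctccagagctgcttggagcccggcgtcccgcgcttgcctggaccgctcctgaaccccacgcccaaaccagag
Otx2 chr14:48667645-48667894 minus strand, the farthest upstream of its 4 listed starts: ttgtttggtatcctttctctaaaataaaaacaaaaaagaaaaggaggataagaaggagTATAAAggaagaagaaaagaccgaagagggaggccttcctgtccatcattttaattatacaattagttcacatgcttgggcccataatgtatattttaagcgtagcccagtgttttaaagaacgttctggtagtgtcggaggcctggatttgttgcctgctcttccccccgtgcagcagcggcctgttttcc
Fgf5 chr5:98253934-98254183 plus strand: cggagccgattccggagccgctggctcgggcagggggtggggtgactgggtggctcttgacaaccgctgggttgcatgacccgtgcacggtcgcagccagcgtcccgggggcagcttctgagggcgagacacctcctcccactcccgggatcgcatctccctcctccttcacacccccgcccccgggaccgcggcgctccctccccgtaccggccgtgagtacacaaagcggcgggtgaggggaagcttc
The only match in these 4 windows was a TATAAA in that of Otx2, a motif held by 12.4% of all 32851 promoter windows of the table. GGATTA was held by 6.25%, ATGCAAAT by 1.6%, CCTGCTG by 8.44% and CCAAT by 33.8% of them. The windows of Zic5, Foxd3 and Fgf5 were GC-rich, at 62.4%, 65.6% and 70.8% GC against a median of 52.4% over all windows, while that of the first Otx2 start was poorer, at 42%. They held 11, 21, 24 and 6 CpG dinucleotides, respectively, where the median window held 6. The other Otx2 starts, not printed, had 48.4% to 53.6% GC in their windows, of which the second held a CCAAT and the third a GGATTA.

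Values are TPM, a transcript's share of all transcripts after division by its length, which can be compared between genes, as estimated by the authors. The tables kept 500162 to 578952 TPM in protein-coding genes per library, and read depth is unknown because TPM keeps none. In TPM, Prkaa1 measured 15.5 and 16.6 (naïve), 7.24 and 6.94 (AKO), 2.30 and 2.04 (DKO), 12.2 and 11.96 (GKO), and 13.4 and 13.7 (PJ1), so the targeted lines were lowest but kept transcript. Gys1 stood between 9.70 and 14.3 TPM in all 10 libraries, and an indel need not lower a transcript, so its level checks no label. All 14 naive pluripotency markers were lower in PJ1 than in naïve ESCs, and their summed level ranged from 1955 to 2219 TPM over the 8 libraries of the other lines and was 171.7 and 182.8 TPM for PJ1. Against naïve ESCs, 7 of the 14 were higher and 1 was lower in GKO, where 51.7% of all tested genes were called (24.7% higher and 27.1% lower). In DKO 8 were higher and 0 lower, where 46.0% of all tested genes were called (21.7% higher and 24.3% lower). In AKO none was called, where 0.224% of all tested genes were. Among the 14 markers Esrrb, a nuclear receptor of the naïve network, rose in GKO (log2 change 0.37 ± 0.04, limma adjusted p = 0.0001578), away from its level in PJ1. The marker that was lower in GKO was Tcl1 (log2 change -0.44 ± 0.06, limma adjusted p = 0.0003135), which was lower in PJ1 too. The PJ1 libraries differed more from each other than the other pairs did: the median absolute log2 difference was 0.127 in PJ1 and 0.056 to 0.07 in the other lines, and 9 mesendoderm markers summed to 37.1 TPM in one PJ1 library and 3.90 TPM in the other.

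Against naïve ESCs, PJ1 held more transcript of Otx2, Pou3f1, Zic1, Zic2, Zic5 and Sall2 and less of Foxd3. Levels were compared on log2(TPM + 1) with limma, over the 12060 genes that reached 1 TPM in 2 or more libraries, and called at a Benjamini-Hochberg adjusted p below 0.05. In bulk RNA, here and in every comparison, a change in the share of cells and one in RNA per cell cannot be told apart. In this comparison 80.0% of all tested genes were called, 37.4% higher and 42.5% lower, so that 7 of 7 tested members called is read against a background where most genes differed. Fgf5 did not pass the filter and was not tested, and Zic1 passed it only through the PJ1 libraries where it is high, so its call follows in part from the filter.

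Naïve libraries gave 5.71 and 6.10 TPM of Otx2 and PJ1 libraries 53.0 and 55.9 TPM, where it rose by 3.01 ± 0.09 (SE) on the log2 scale (limma adjusted p = 5.46e-09). Sall2 had the largest log2 change of TPM + 1 among the tested members, from 0.690 and 0.921 TPM to 27.7 and 27.5 TPM (log2 change 3.99 ± 0.09, limma adjusted p = 7.17e-10). The PJ1 libraries agreed closely for both genes and lay far above every library of the other lines. Pou3f1 was weaker in level, with 1.07 and 1.32 TPM (naïve) against 5.61 and 9.10 TPM for PJ1 (log2 change 1.90 ± 0.17, limma adjusted p = 6.18e-06).

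Zic2 was the most abundant member in PJ1, at 86.9 and 110.2 TPM, against 14.4 and 13.7 TPM for naïve (log2 change 2.72 ± 0.11, limma adjusted p = 2.68e-08). Its neighbour Zic5 rose from 6.22 and 5.61 TPM to 29.2 and 39.3 TPM (log2 change 2.34 ± 0.12, limma adjusted p = 1.68e-07). Zic1 was very low in the naïve libraries, at 0.086 and 0.084 TPM, and its PJ1 libraries lay far apart, at 11.9 and 1.62 TPM (log2 change 2.42 ± 0.56, limma adjusted p = 0.00308). Fgf5 split the same libraries in the same direction: it was listed at 10.7 TPM in the PJ1 library with the higher Zic1 and at 0.447 TPM in the other, while the 8 libraries of the other lines were listed between 0 and 0.138 TPM. The mesendoderm markers, which separated the PJ1 libraries too, moved with both genes, and their part in this split was not tested.

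Foxd3 ran opposite to the other members. With 29.5 and 25.1 TPM it was the most abundant of the 8 in the naïve state, and it fell to 12.1 and 8.42 TPM in PJ1 (log2 change -1.345 ± 0.16, limma adjusted p = 4.08e-05). The naïve and PJ1 libraries did not overlap for any of the 8 genes. This says little by itself, since an exact permutation test of 2 libraries against 2 cannot go below p = 0.333. The share of all genes without overlap was not counted, and 80.0% of those tested were called.

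**Figure D1:**
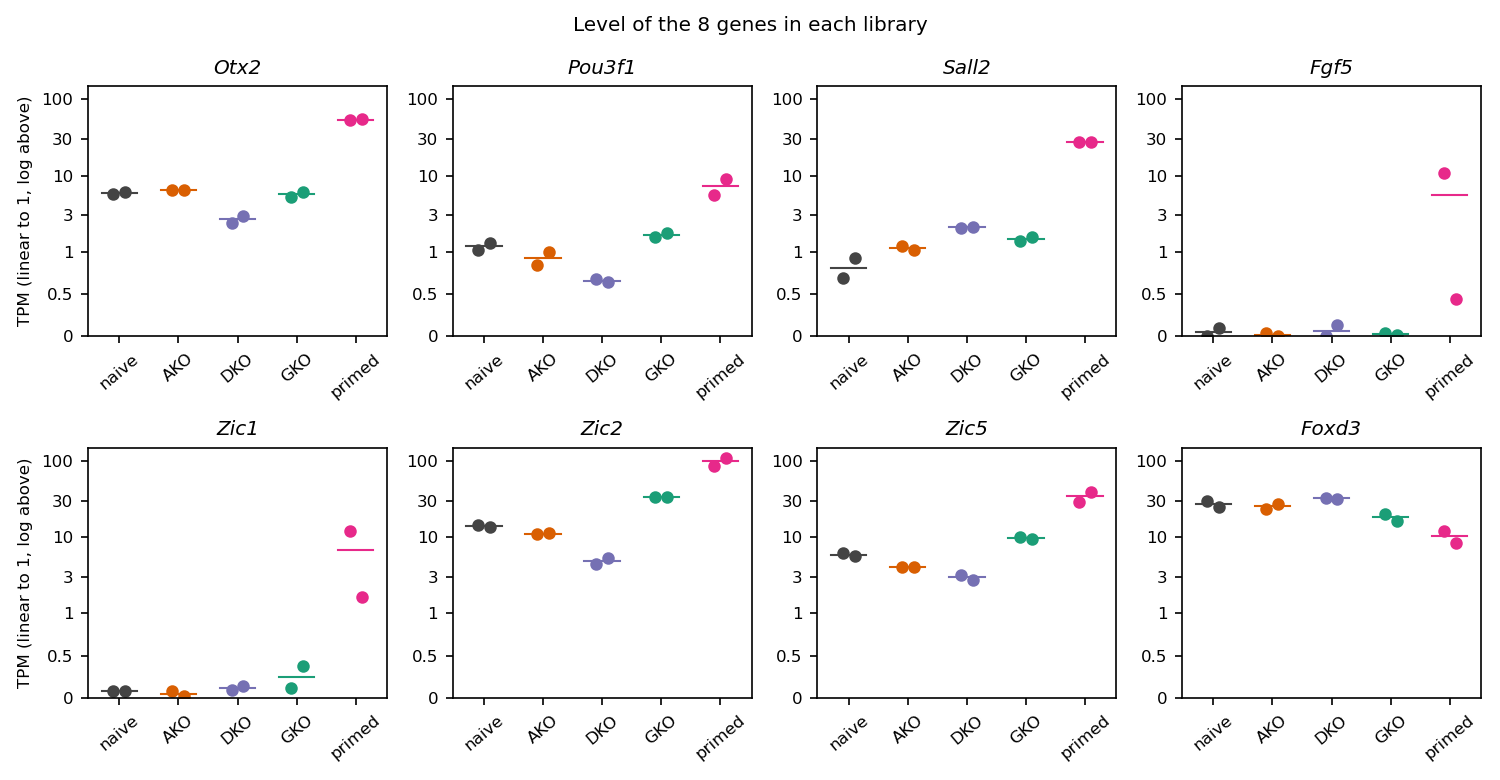
Level of each member in TPM (vertical axis, linear up to 1 and logarithmic above) in the 5 lines; points are single libraries and bars the mean of the 2 libraries. PJ1 is the highest line for all members but Foxd3, DKO lies lowest for Otx2, Pou3f1, Zic2 and Zic5, and the PJ1 points of Zic1 (11.9 and 1.62 TPM) and Fgf5 (10.7 and 0.447 TPM) lie far apart.

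Loss of Gys1 alone was next compared with naïve ESCs, both in naïve medium, to see whether GKO moved along the same axis as PJ1. Zic2, Zic5 and Sall2 rose and Foxd3 fell, while Otx2 and Pou3f1 were not called. Thus 4 of 7 tested members were called, where 51.7% of all tested genes were called (24.7% higher and 27.1% lower), a share close to the background. Zic2 stood at 33.7 and 33.3 TPM in GKO, above both naïve libraries and below both PJ1 libraries (log2 change 1.196 ± 0.107, a fold of 2.29 on the TPM + 1 scale, limma adjusted p = 3.97e-05). Zic5 stood at 9.99 and 9.57 TPM (log2 change 0.64 ± 0.12, limma adjusted p = 0.00235). Neither gene's GKO libraries overlapped those of naïve ESCs, but Zic5, like Sall2, lies on chromosome 14 and lost its call when set against the median of that chromosome, as given further on with the chromosome's values.

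Sall2 was low in both lines, at 1.37 and 1.59 TPM in GKO (log2 change 0.46 ± 0.09, limma adjusted p = 0.00231). Foxd3 fell to 20.0 and 16.4 TPM (log2 change -0.56 ± 0.16, limma adjusted p = 0.0161), a call that was lost without naive replicate 1 (adjusted p = 0.106, log2 change -0.45) or without GKO replicate 2 (adjusted p = 0.114, log2 change -0.43). Otx2 was 5.28 and 6.09 TPM in GKO, overlapping its naïve libraries (log2 change -0.05 ± 0.09, limma adjusted p = 0.683). Pou3f1 was 1.55 and 1.77 TPM, above both naïve libraries, and was not called (log2 change 0.28 ± 0.17, limma adjusted p = 0.199), but it passed without the PJ1 libraries in the fit (adjusted p = 0.0256), the pair that lay farthest apart for this gene. Zic1 at 0.119 and 0.372 TPM and Fgf5 at 0.036 and 0.017 TPM stayed far below 1 TPM in GKO.

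PJ1 was still above GKO for the 6 members that were higher in PJ1 than in naïve ESCs, and below it for Foxd3, with 7 of 7 called where 77.1% of all tested genes were called. Zic1 is among them and passed the filter only through the PJ1 libraries, so its call follows in part from the filter here too. For Zic2 the gap from GKO to PJ1 was 1.52 ± 0.11 (limma adjusted p = 1.35e-06) and for Zic5 1.695 ± 0.12 (limma adjusted p = 1.62e-06), both on the log2 scale.

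DKO ESCs went the other way for the Zic pair. Zic2 fell to 4.48 and 5.37 TPM (log2 change -1.35 ± 0.11, limma adjusted p = 2.91e-05), Zic5 to 3.14 and 2.76 TPM (log2 change -0.81 ± 0.12, limma adjusted p = 0.000821) and Otx2 to 2.39 and 2.98 TPM (log2 change -0.91 ± 0.09, limma adjusted p = 9.997e-05), each below every naïve library. Sall2 rose here too, to 2.03 and 2.14 TPM (log2 change 0.78 ± 0.09, limma adjusted p = 0.000166). In all, 1 member was higher and 3 were lower among 7 tested, where 46.0% of all tested genes were called (21.7% higher and 24.3% lower). Pou3f1 was 0.678 and 0.644 TPM in DKO, under both naïve libraries, and missed the threshold (log2 change -0.40 ± 0.17, limma adjusted p = 0.0855), although it passed without the PJ1 libraries (adjusted p = 0.0052). Foxd3 was 32.8 and 31.8 TPM, above both naïve libraries, and was not called (log2 change 0.24 ± 0.16, limma adjusted p = 0.251). Zic1 was 0.091 and 0.137 TPM, and Fgf5 was listed at 0 and 0.138 TPM.

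AKO ESCs differed from naïve ESCs in no member at the adjusted threshold, and in 0.224% of all tested genes. By unadjusted limma p under 0.05 the counts were 3 of 7 members and 1231 of 12060 genes. The members with an unadjusted p below 0.05 were Zic2 at 10.9 and 11.2 TPM (log2 change -0.32 ± 0.11, limma adjusted p = 0.342), Zic5 at 3.99 and 4.06 TPM (log2 change -0.46 ± 0.12, limma adjusted p = 0.22) and Sall2 at 1.17 and 1.07 TPM (log2 change 0.24 ± 0.09, limma adjusted p = 0.394). Their AKO libraries did not overlap the naïve ones, but this does not set them apart. Otx2, Pou3f1 and Zic1 did not overlap either, at unadjusted limma p of 0.251, 0.301 and 0.939. The value of Zic5 passed when the PJ1 libraries were left out of the fit (adjusted p = 0.0288). Otx2 was 6.44 and 6.51 TPM, Pou3f1 0.843 and 1.01 TPM and Foxd3 23.1 and 27.4 TPM in AKO, and Zic1 and Fgf5 were below 0.1 TPM.

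Set side by side, GKO and DKO differed in 6 of 7 tested members, where 43.5% of all tested genes were called (21.2% higher and 22.4% lower in GKO). Zic2 was 5.835 times as high in GKO on the TPM + 1 scale (log2 difference 2.545 ± 0.11, limma adjusted p = 2.45e-06) and Zic5 2.73 times (log2 difference 1.45 ± 0.12, limma adjusted p = 4.18e-05). Otx2 was higher in GKO by 0.86 ± 0.09 (limma adjusted p = 0.000147) and Pou3f1 by 0.68 ± 0.17 (limma adjusted p = 0.0116). Foxd3 was lower in GKO (log2 difference -0.80 ± 0.16) and so was Sall2 (-0.32 ± 0.09), with limma adjusted p of 0.00369 and 0.01698. The calls of Pou3f1 and Sall2 here were the least firm: that of Pou3f1 was lost without DKO replicate 1, DKO replicate 2 or GKO replicate 2 (adjusted p = 0.05003 to 0.0705), and that of Sall2 without DKO replicate 1, DKO replicate 2 or GKO replicate 1 (adjusted p = 0.0515 to 0.113).

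**Figure D2:**
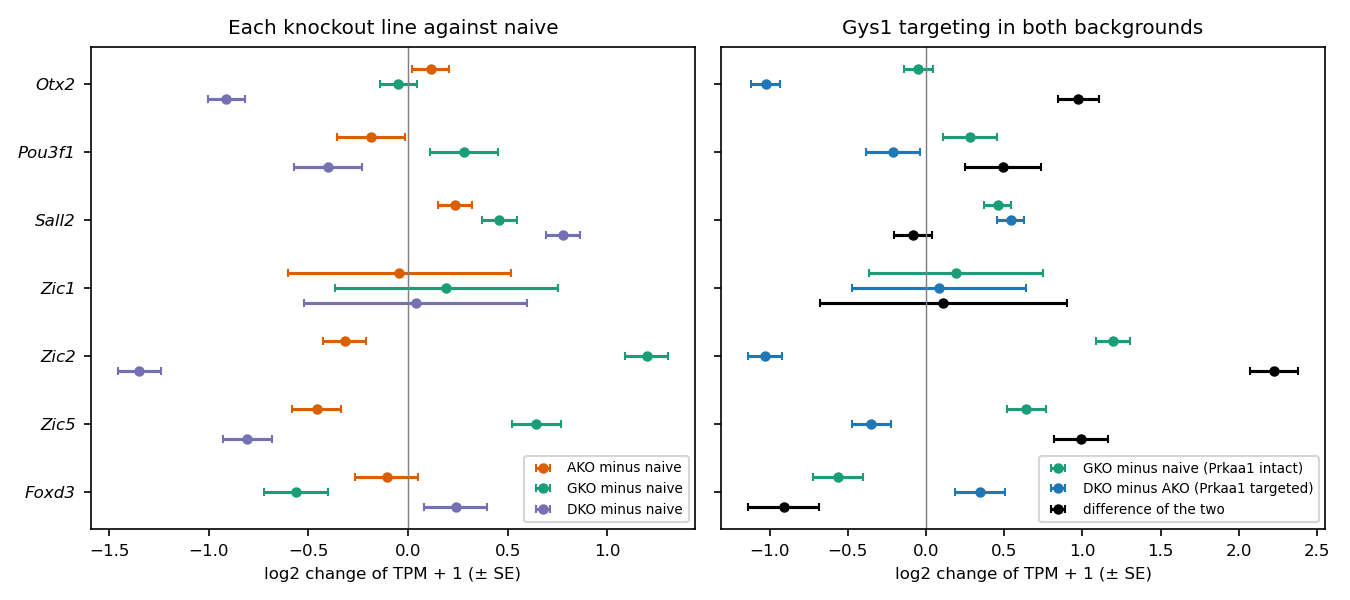
Log2 change of TPM + 1 with its SE (horizontal axis) for the 7 tested members. The left panel shows AKO, GKO and DKO minus naïve; the right panel shows GKO minus naïve, DKO minus AKO and, in black, the difference between them. Zic2 and Zic5 lie on opposite sides of 0 in GKO and DKO, Sall2 lies above 0 in both, and the bars of Zic1 are wide (SE 0.558).

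The design holds Gys1 targeting on both Prkaa1 backgrounds, and the 2 effects were compared directly. The Prkaa1-targeted lines were not alike in Prkaa1 itself, at 7.24 and 6.94 TPM in AKO and 2.30 and 2.04 TPM in DKO. In DKO minus AKO, Gys1 targeting and this difference in Prkaa1 level therefore cannot be told apart. On the targeted background, DKO minus AKO, Otx2 fell by 1.025 ± 0.09 and Zic2 by 1.03 ± 0.11 (limma adjusted p = 5.22e-05 and 0.000108), Zic5 fell by 0.35 ± 0.12 (limma adjusted p = 0.0441), and Sall2 rose by 0.54 ± 0.09 (limma adjusted p = 0.00111), a call lost when set against its chromosome's median (log2 change 0.15, limma adjusted p = 0.199). This made 1 member higher and 3 lower, where 46.3% of all tested genes were called (22.4% higher and 23.9% lower). The call of Zic5 was near the threshold and was lost when any of the 8 libraries other than the PJ1 pair was left out (adjusted p = 0.0596 to 0.203).

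The effect of Gys1 targeting differed between the backgrounds in 4 of 7 members, where 25.8% of all tested genes were called (12.8% higher and 13.1% lower). Among the members Zic2 had the largest difference, 2.23 ± 0.15 on the log2 scale (limma adjusted p = 6.76e-05): it rose in GKO over naïve ESCs and fell in DKO under AKO. Zic5 differed by 0.99 ± 0.17 (limma adjusted p = 0.00401), with effects of the same opposite signs. Otx2 differed by 0.975 ± 0.13 (limma adjusted p = 0.00115), since it fell in DKO and was not called in GKO. Foxd3 differed by -0.91 ± 0.225 (limma adjusted p = 0.0179), and this call was lost when naive replicate 1, AKO replicate 1, either DKO library or GKO replicate 2 was left out (adjusted p = 0.05397 to 0.07046). Sall2 was called higher on both backgrounds, though on neither against its chromosome's median, and its difference was -0.08 ± 0.12 (limma adjusted p = 0.662). Pou3f1 had a difference of 0.49 ± 0.24 (limma adjusted p = 0.167), which passed without the PJ1 libraries (adjusted p = 0.01665). Zic1, low in all 4 of these lines, gave 0.11 ± 0.79 (limma adjusted p = 0.938).

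Ordered by level, Zic2, Zic5 and Pou3f1 shared 1 order: DKO, AKO, naïve, GKO, PJ1. For Zic2 and Zic5 the neighbours AKO and naïve were the pair not called. For Pou3f1 DKO and AKO, AKO and naïve, and naïve and GKO were not called, while GKO against AKO was (log2 difference 0.47 ± 0.17, limma adjusted p = 0.0455, where 52.4% of all tested genes were called). Otx2 stood lowest in DKO and highest in PJ1, and GKO, naïve and AKO between them were not called apart. Sall2 ran naïve, AKO, GKO, DKO, PJ1, with naïve and AKO, and AKO and GKO (log2 difference 0.22 ± 0.09, limma adjusted p = 0.0602), not called apart, and with PJ1 above DKO by 3.21 ± 0.09 (limma adjusted p = 2.56e-09, where 78.6% of all tested genes were called). Foxd3 ran PJ1, GKO, AKO, naïve, DKO, and AKO, naïve and DKO were not called apart. DKO against AKO (log2 difference 0.35 ± 0.16) passed without the PJ1 libraries (limma adjusted p = 0.0222), and with only the libraries compared DKO passed against AKO and against naïve (limma adjusted p = 0.00862 and 0.0358).

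Chromosome 14, which holds Otx2, Sall2, Zic2 and Zic5, had a higher median level in GKO, DKO and PJ1 than in naïve ESCs. Its 394 other tested genes had a median log2 change of 0.473 in GKO, 0.371 in DKO and 0.537 in PJ1 against naïve ESCs, and of -0.009 in AKO, while the medians over all tested genes were -0.011, -0.008, -0.055 and -0.006. The number of copies of the chromosome was not measured here, and its part in the results was not tested. Each value was therefore also set against the median of its own chromosome. Zic2 then stayed higher in GKO (log2 change 0.71, limma adjusted p = 0.0008675) and lower in DKO (log2 change -1.73, limma adjusted p = 1.104e-05). Zic5 was no longer called in GKO (log2 change 0.16, limma adjusted p = 0.331) and stayed lower in DKO (log2 change -1.19, limma adjusted p = 0.000136). Sall2 in GKO was near the chromosome's median (log2 change -0.027, limma adjusted p = 0.826), and in DKO it was above it (log2 change 0.40, limma adjusted p = 0.00658), although not against AKO (log2 change 0.15, limma adjusted p = 0.199).

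Otx2 gained a call in GKO under this centring: it was lower than its chromosome in GKO (log2 change -0.53, limma adjusted p = 0.00174), where its uncentred libraries overlapped the naïve ones, and lower still in DKO (log2 change -1.29, limma adjusted p = 2.20e-05). The 20 tested genes nearest to Otx2 had a median of 0.528 in GKO and 0.467 in DKO, and in DKO they ranged from 0.159 to 1.158, all above Otx2. The 14 tested genes nearest to Zic2 and Zic5, near the end of the chromosome, had a median of 0.61 in GKO and 0.46 in DKO. In DKO these 14 ranged from -0.711 to 1.277, so that Zic2 at -1.35 and Zic5 at -0.81 lay below all of them, whereas in GKO the range of -0.656 to 1.249 took in both genes. The difference between the backgrounds was kept under this centring for Zic2 (2.13), Zic5 (0.90), Otx2 (0.88) and Foxd3 (-0.84), with limma adjusted p of 0.0001036, 0.00715, 0.00216 and 0.0253.

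**Figure D3:**
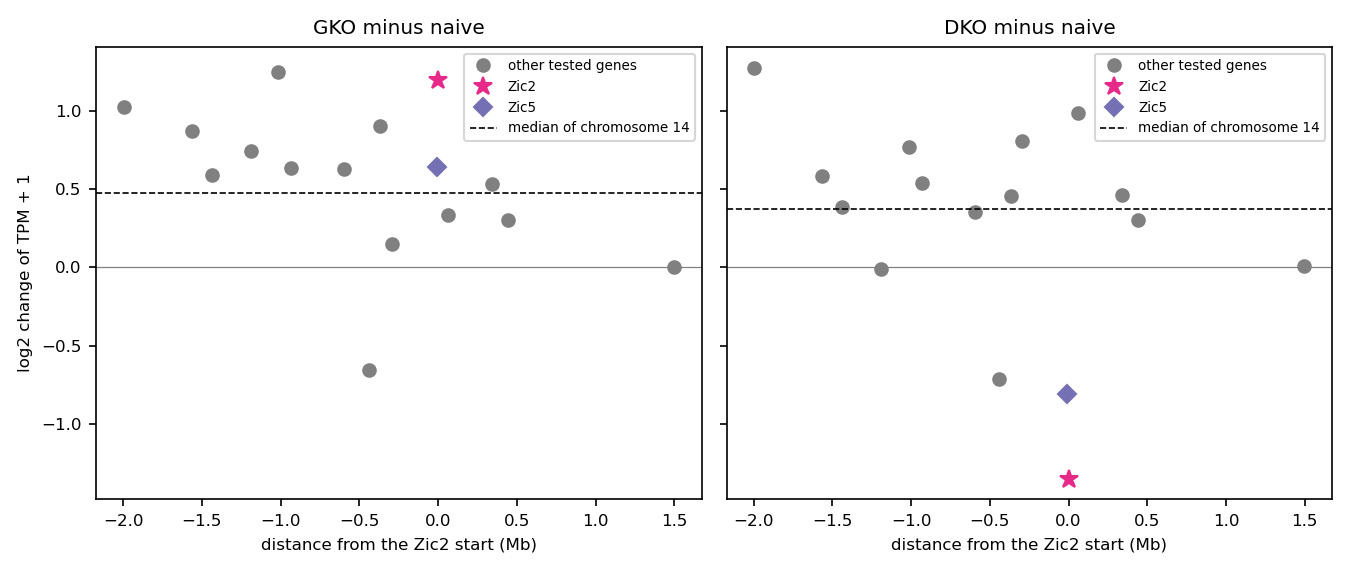
Log2 change of TPM + 1 (vertical axis) of the 14 tested genes nearest to Zic2, by distance of their starts from that of Zic2 in Mb (horizontal axis), for GKO minus naïve (left) and DKO minus naïve (right). The dashed line is the median of chromosome 14 (0.473 and 0.371); Zic2 (star) and Zic5 (diamond) lie within the range of the grey points in GKO and below all of them in DKO.

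Relatives of the members were read next, 13 genes fixed by family. Of these, 8 stayed under the filter and 5 were tested: against naïve ESCs, 1 was higher and 3 were lower in GKO, 1 higher and 2 lower in DKO, and 2 higher and 2 lower in PJ1, where 51.7%, 46.0% and 80.0% of all tested genes were called. Sall4, a spalt factor of the naïve core network, rose in GKO (log2 change 0.47 ± 0.04, limma adjusted p = 4.84e-05) and in DKO. It was higher in PJ1 too (log2 change 0.30 ± 0.04, limma adjusted p = 0.0001767). Fgf4, the growth factor that drives exit from the naïve state, fell in PJ1 from 80.5 and 88.1 TPM to 5.26 and 4.35 TPM (log2 change -3.88 ± 0.075, limma adjusted p = 3.88e-10).

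A further 27 genes of the formative and primed epiblast, a list put together with earlier results of these data known, were all tested. In PJ1 16 were higher and 9 lower than in naïve ESCs, with a median log2 change of 2.045, where the median of all tested genes was -0.055 and 80.0% of them were called (37.4% higher and 42.5% lower). The highest rises were those of Pim2, a survival kinase (5.71 ± 0.11, limma adjusted p = 3.44e-10), Wnt8a, a Wnt ligand of the early embryo (5.15 ± 0.17, limma adjusted p = 8.94e-09), and Sfrp2, a secreted Wnt modulator (4.06 ± 0.195, limma adjusted p = 9.12e-08). Wnt8a, like Fgf8 of the same list, reached 1 TPM only in the PJ1 libraries, so its call follows in part from the filter. It stood at 48.4 and 33.8 TPM there and at most at 0.727 TPM elsewhere. Tdgf1, the Nodal co-receptor Cripto, had the largest fall, from 430.8 and 426.3 TPM to 3.05 and 0.543 TPM (-7.425 ± 0.335, limma adjusted p = 6.15e-08).

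The same list split in GKO, with 5 higher and 4 lower than in naïve ESCs and a median log2 change of 0.035, where 51.7% of all tested genes were called. Sfrp2 (1.33 ± 0.195, limma adjusted p = 0.000524) and Krt18, a simple epithelial keratin (0.89 ± 0.14, limma adjusted p = 0.000829), rose. Sox11 (-1.425 ± 0.08, limma adjusted p = 3.64e-06) and Sox3 (-0.70 ± 0.12, limma adjusted p = 0.001497), SOX factors of neural progenitors that were both higher in PJ1, fell. Against DKO, 8 were higher and 3 lower in GKO, a share near the 43.5% of all tested genes called (21.2% higher and 22.4% lower): Tcf15, a helix-loop-helix factor of cells about to leave the naïve state, was higher by 1.595 ± 0.12 (limma adjusted p = 2.13e-05), Dnmt3a, a de novo DNA methyltransferase, by 0.86 ± 0.07 (limma adjusted p = 4.13e-05), and Sox4 by 0.83 ± 0.09 (limma adjusted p = 0.000197). The libraries held 15.9 and 17.6 (naïve), 22.7 and 27.7 (GKO), and 8.43 and 6.90 (DKO) TPM of Tcf15. In DKO the list had 5 genes higher and 8 lower than naïve ESCs, where 46.0% of all tested genes were called, and in AKO none was called either way.

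**Figure D4:**
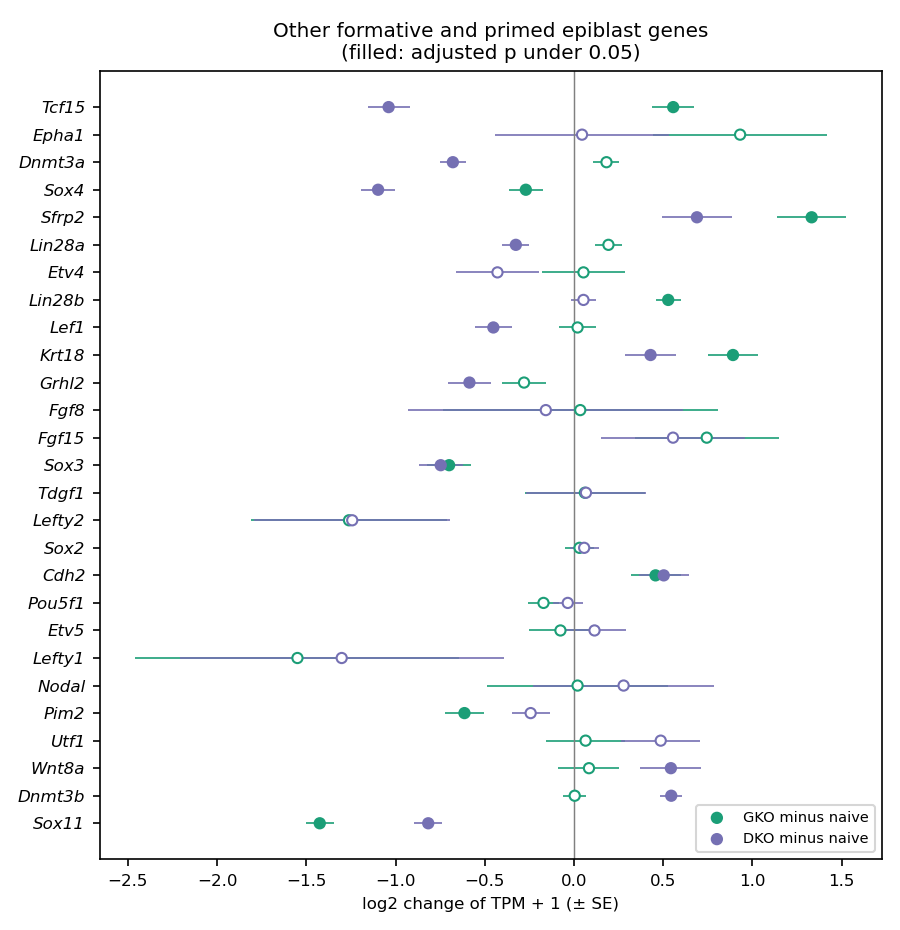
Log2 change of TPM + 1 with its SE (horizontal axis) of the 27 further formative and primed genes (rows), GKO minus naïve in green and DKO minus naïve in violet, ordered by the difference between GKO and DKO; filled points were called. Tcf15 lies above 0 in GKO and below it in DKO, and Sox11 and Sox3 lie below 0 in both.

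Markers of other cell types moved beside the members. Their counts against naïve ESCs are read beside the shares of all tested genes called. These were 24.7% higher and 27.1% lower in GKO, and 21.7% higher and 24.3% lower in DKO. Of 12 neural markers 11 were tested and all 11 were higher in PJ1, where 80.0% of all tested genes were called. Several, Sox1 and Pax6 among them, reached 1 TPM only in PJ1, so their calls follow in part from the filter. In PJ1 Sox1 stood at 27.2 and 29.6 TPM and Pax6 at 3.36 and 2.475 TPM, against 0.575 and 0.661, and 0.308 and 0.178 TPM (naïve). The sum of the 12 in TPM was 63.4 and 65.25 (naïve), 104.3 and 103.4 (GKO), 72.6 and 75.5 (DKO), 52.1 and 54.1 (AKO), and 203.2 and 179.2 (PJ1). Outside PJ1 most of this sum was Tubb3, at 59.0 and 60.6 (naïve), 96.2 and 95.3 (GKO), 66.6 and 70.0 (DKO), and 47.2 and 49.3 (AKO) TPM. In PJ1 Tubb3 stood at 85.9 and 78.5 TPM. In GKO 2 of the 11 rose, Tubb3, a neuronal tubulin (log2 change 0.67 ± 0.05, limma adjusted p = 2.13e-05), and Nes, an intermediate filament of neural progenitors (log2 change 0.83 ± 0.10, limma adjusted p = 0.0001647), while the defining factors Sox1 and Pax6 stayed at or below 0.908 TPM and 0.18 TPM. The mesendoderm markers summed to 24.6 and 25.3 TPM in DKO and 34.6 to 40.15 TPM in naïve, AKO and GKO, and of 4 tested 1 was lower in GKO and 1 in DKO. One of these markers, T, stood at 4.94 and 4.885 TPM in DKO against 15.7 and 14.5 (naïve), 13.4 and 13.2 (AKO), and 19.1 and 17.5 (GKO) TPM. T was higher in GKO than in DKO (log2 difference 1.71 ± 0.60, limma adjusted p = 0.0455). It was not called in DKO against naïve ESCs (limma adjusted p = 0.0774). The 7 primitive endoderm markers summed to 1.12 to 2.41 TPM in the 4 lines in naïve medium and to 23.1 and 15.1 TPM in PJ1, of which Foxq1 alone gave 16.0 and 12.2 TPM, while Gata4 was at 0.502 and 0.041 TPM there. Of 3 tested, 1 was higher in GKO than in naïve ESCs (Gata4, at 1.385 and 1.307 against 0.685 and 0.363 TPM, limma adjusted p = 0.0109) and 1 was lower. The 8 fibroblast markers summed to 22.7 to 39.4 TPM in all libraries, most of it Fbln1, and of 4 tested 2 were higher in GKO than in naïve ESCs. These were Thy1, a surface protein (log2 change 1.24 ± 0.335, limma adjusted p = 0.0132), and Col1a1, a collagen chain (0.47 ± 0.08, limma adjusted p = 0.000954). Both were also higher in GKO than in DKO and differed between the Prkaa1 backgrounds (1.57 and 0.36, limma adjusted p = 0.0397 and 0.0411), as Zic2 did. Thy1 measured 3.00 and 2.44 (naïve), 7.14 and 8.48 (GKO), and 1.88 and 2.04 (DKO) TPM, while Dcn and Lum were listed at 0 in both GKO libraries. The part of other cell types in the members' changes was not tested.

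Genes whose levels ran most like each member were sought over the 8 libraries in naïve medium, among 931 genes whose line means spanned at least 1 on the log2 scale. The 8 points share only 4 lines, so that these Pearson correlations describe 4 levels and carry no p. Zic2 was followed most closely by Tspan17 (r = 0.996), En1 (r = 0.994) and Clip4 (r = 0.993), of which En1, a homeobox factor of the midbrain, measured 2.13 and 2.12 (naïve), 4.385 and 4.10 (GKO), and 0.404 and 0.514 (DKO) TPM. Zic5 ran with Wnk3 (r = 0.987), Exoc3l2 (r = 0.983) and Mapk8ip1 (r = 0.980), and Pou3f1 with Exoc3l2 (r = 0.976), Irx2 (r = 0.976) and Wnk3 (r = 0.963), so Wnk3 and Exoc3l2 stood on both lists. None of these 7 genes is on chromosome 14.

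Otx2 was most like Atp1b2 (r = 0.986), Plxdc1 (r = 0.980) and Recql (r = 0.979), and in PJ1 these parted: Atp1b2, a subunit of the sodium pump, was higher, at 27.2 and 29.5 TPM against 7.48 and 7.70 TPM (naïve), while Plxdc1 was listed at 0 and 0.103 TPM against 3.39 and 3.16 TPM. Foxd3 ran with Wdr25 (r = 0.991), Ly6a (r = 0.9635) and Fgfbp1 (r = 0.946). Ly6a, the surface protein Sca-1, measured 44.4 and 37.6 (naïve), 75.8 and 80.8 (DKO), and 11.5 and 9.91 (GKO) TPM. Sall2 ran with Cdc42ep3 (r = 0.9865), Galnt6 (r = 0.979) and Peli2 (r = 0.975), and of these Peli2 lies on chromosome 14 as Sall2 does.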

How the data were processed

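RNA of 10 libraries, 2 for each of 5 J1 lines, was sequenced in pairs and quantified by the authors. The deposited tables give one TPM value per gene and hold neither counts nor coordinates. The submitters' processing notes name Trim Galore 0.6.6, STAR 2.7.9a, RSEM 1.3.3 and the builds GRCm38 and GRCh38, with a stranded Illumina kit; the study's methods name GRCm39, another STAR version and, for some lines, an MGI kit. Which of these made each table cannot be told apart. The tables were limited to protein-coding genes by the authors.

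The members and lists were chosen with earlier results of these data known. Values were transformed to log2(TPM + 1), with no further scaling, and genes reaching 1 TPM in 2 or more libraries were kept (12060 of 21853 rows, of which 26 repeat a symbol). A limma 3.58.1 model (R 4.3.3) with 5 line means and an intensity trend was fitted over all 10 libraries, with Benjamini-Hochberg adjustment over the tested genes of each contrast, and was tested on simulated data. With 2 libraries against 2, an exact permutation test of one value cannot go below p = 0.333, so none is given. Gene positions were taken from GRCm39 by symbol (18965 rows) or older symbol (356 rows). Genes named beyond the members came from the up to 4 of each list with the largest called change. These changes were against naïve in PJ1 or GKO, or between GKO and DKO, and not all such genes were named. Pax6, Fgf8, Dcn, Lum and Zic4 were named outside this choice for description, and Prkaa1 and Gys1 as the targeted genes. The 3 genes most like each member were named too. Of these, En1, Ly6a, Atp1b2, Plxdc1 and Peli2 were picked for description after their values were seen. Replicate numbers did not pair the libraries: the correlations of their deviations between lines ran from -0.128 to 0.078. TPM is a share, so a gene's value also moves with all others, and read depth is unknown. Alternatives were another pseudocount, filter, scaling, trend, minimum change, sample set, chromosome centring, a replicate block and leaving out each library. One further result is not reported here.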

Additional observations from a re-analysis of the deposited data

Results flagged for a closer look

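Gys1 targeting had a different effect on naïve and on AKO ESCs for 4 of 7 tested members, by a direct test of the difference (limma, adjusted over all tested genes). By the same test 25.8% of all tested genes were called. The difference was 2.23 on the log2 scale for Zic2, where the GKO libraries (33.7 and 33.3 TPM) lay above naïve (14.4 and 13.7 TPM) and the DKO libraries (4.48 and 5.37 TPM) below AKO (10.9 and 11.2 TPM). It was 0.99 for Zic5 and 0.975 for Otx2. For Foxd3 it was -0.91, with 20.0 and 16.4 TPM in GKO against 29.5 and 25.1 TPM for naïve, and 32.8 and 31.8 TPM in DKO against 23.1 and 27.4 TPM for AKO; this call was lost without naive replicate 1, AKO replicate 1, either DKO library or GKO replicate 2 (limma adjusted p = 0.05397 to 0.07046). Each line may be 1 clone, and a difference between clones and the effect of an edit cannot be told apart. AKO and DKO also differed in Prkaa1 level (7.24 and 6.94 against 2.30 and 2.04 TPM), and the part of this was not tested.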

How the results depend on the processing

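The 7 comparisons were recomputed under each alternative, except the difference between backgrounds with only the libraries compared, and PJ1 against naïve without PJ1; Zic1 and Pou3f1 had no value where the filter on low values removed them. With a minimum absolute log2 change of 1, the members called fell to 1 in GKO against naïve (Zic2), 1 in DKO against naïve (Zic2), 2 in GKO against DKO (Zic2 and Zic5), 2 in DKO against AKO (Otx2 and Zic2) and 1 in the difference between backgrounds (Zic2), and the calls over all genes to 433, 357, 323, 375 and 349, with 3355 in PJ1 against naïve. Without the PJ1 libraries 1 member, Zic5, was called in AKO against naïve, and leaving out single libraries gave 0 to 1; over all genes the AKO calls were 27 in the reported fit, 13 with a pseudocount of 0.1, 17 with a filter at a mean of 5 TPM, 11 chromosome-centred, 8 with the replicate block, 1 with the minimum change, 92 with only the libraries compared, 175 without PJ1 and 1 to 169 leaving out single libraries. Leaving out single libraries gave 3485 to 6304 calls between GKO and DKO and 1943 to 4443 for the difference between backgrounds (5252 and 3116 in the reported fit). The change of Sall2 in GKO, called at 0.46, turned sign when chromosome-centred (-0.027). Changes that were not called and turned sign were, over the left-out libraries, Foxd3 in AKO (-0.227 to 0.011), Otx2 in GKO (-0.138 to 0.038) and the differences between backgrounds of Sall2 (-0.176 to 0.009) and Zic1 (-0.038 to 0.257). With the replicate block, Zic5 lost its call in DKO against AKO (-0.35, limma adjusted p = 0.0604) and no other member's call changed. The calls of Zic2 in GKO, in DKO, between GKO and DKO and in the difference between backgrounds held under every alternative run for them. The causes of the changes were not tested. Depth is unknown, and values below 1 TPM (Zic1 and Fgf5 outside PJ1) are the least certain.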
